A study of Sus scrofa with 2 samples.

Results

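The autosomal 1 kb windows densest in listed CpGs are described here. A CpG is a cytosine followed by a guanine, and it was listed where the deposited files name at least 1 of its 2 cytosines as methylated. Windows were cut at fixed steps of 1000 bases on chromosomes 1 to 18, and those with 30 or more distinct CpGs in the union of both libraries were taken, whatever their methylation level. This gave 1021 of 1762727 windows with a listed CpG, and they held 37064 of 9651383 listed CpGs. The number of listed CpGs thus chose the windows, and it depends on sequence, read depth and the presence of methylation together.

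Whole-genome bisulfite sequencing was done on the longissimus dorsi, the long muscle of the back, of 2 female Tibetan pigs. The low-altitude pig was kept on the Chengdu plain at an average of 500 m, fed daily under experimental conditions, and came from Tibetan pigs bred in the lowland for several generations. The high-altitude pig lived free-ranging in the Tibetan highland, at 4000 m on average. Altitude, feeding, housing and descent cannot be told apart, and with 1 pig for each altitude no difference has a replicate check.

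Bisulfite turns unmethylated cytosine into a base read as thymine and leaves methylated cytosine, so the share of cytosine reads gives the methylation level. Most of the vertebrate genome is poor in CpGs, since methylated cytosine mutates readily to thymine over evolution. CpG-rich stretches remain at CpG islands, which at active promoters are mostly free of methylation, and they also occur inside genes, near chromosome ends and in tandem repeats, where they are often methylated. No cytosine in the files had fewer than 5 reads, and each had 1 or more methylated reads. At low depth, a window rich in CpGs but nearly free of methylation therefore has few listed CpGs. The dense windows described here are mostly CpG-rich stretches that carry methylation. A deeply read window can be dense at a low level. An example on chromosome 16 had 3.19% at low and 2.51% at high altitude, with 105 and 84.3 reads per shared CpG.

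The low-altitude library listed 9227228 autosomal cytosines with 87482185 reads, and the high-altitude library 9527968 with 91619676 reads, at a median of 8 reads per cytosine in both. Levels are given as methylated reads over all reads at CpGs listed in both libraries, with the strands of a CpG summed. Intervals are 95% Wilson intervals, which cover counting error only and take reads as independent, and intervals of differences were formed from them by Newcombe's method. A difference is the low-altitude level less the high-altitude level, in percentage points.

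The dense windows held a median of 33 listed CpGs, and 141 at most. Listed CpGs lay a median of 14 bases apart in them, against 21 bases in windows with 20 to 29 listed CpGs and 67 bases in windows with 5 to 9. Gaps of exactly 2 bases, as in CGCG, made up 5.6% of the gaps in dense windows, 3.5% with 20 to 29 CpGs and 0.979% with 5 to 9. The number of CpGs fell off steeply, with 662 windows at 30 to 34 CpGs, 210 at 35 to 39, 85 at 40 to 49 and 64 at 50 or more.

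The 225 windows with exactly 30 CpGs had median levels of 81.7% at low and 81.9% at high altitude and a median difference of −1.45 points. Over all their reads the levels were 63.2% and 66.1%, and 44.7% of their CpGs were listed in 1 library only. The 312 windows with 29 CpGs, which were left out, had median levels of 81.7% and 82.0% and a median difference of −0.89 points. Over all their reads the levels were 45.9% and 48.5%, and 45.1% of their CpGs were listed in 1 library only.

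A large part of the density came from joining the libraries. On its own, the low-altitude library listed 30 or more CpGs in 402 of the dense windows and the high-altitude library in 351. Both did so in 184 windows, and neither did in 452. Of the CpGs in dense windows, 15615 (42.1%) were listed in 1 library only, 8997 (24.3%) in the low-altitude library and 6618 (17.9%) in the high-altitude library. Over all autosomal CpGs the share was 41.0%, with 20.3% in the low-altitude and 20.8% in the high-altitude library alone. In windows with 20 to 29 CpGs it was 47.2%. As listing chose the windows, these shares are a description.

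The share listed in 1 library only varied widely among the dense windows and fell with depth. It was 50.1% in the 822 windows with under 12 reads per listed CpG, 31.5% in the 80 windows with 12 to 20 reads, 29.3% in 39 windows with 20 to 50 reads and 5.38% in the 80 windows with 50 reads or more. In 37 windows every CpG was listed in both libraries, whereas in 414 (40.5%) over 50% of the CpGs were in 1 library only. CpGs listed in 1 library only were thinly covered, with a median of 6 reads in either library, against 11 reads at low and 10 at high altitude for shared CpGs. Their mean CpG level was 79.2% in the low-altitude and 80.1% in the high-altitude library, while shared CpGs of dense windows had 75.6% and 75.4%. Few of them had a CpG of the other library within 50 bases on each side, though most had one within 200 bases. Of those listed at low altitude only, 9.39% had a CpG of the high-altitude library within 50 bases on each side, and 13.8% had none within 200 bases. Of those listed at high altitude only, 11.1% had such neighbours from the low-altitude library, and 7.07% had none within 200 bases. These shares were not taken for shared CpGs.

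**Figure D1:**
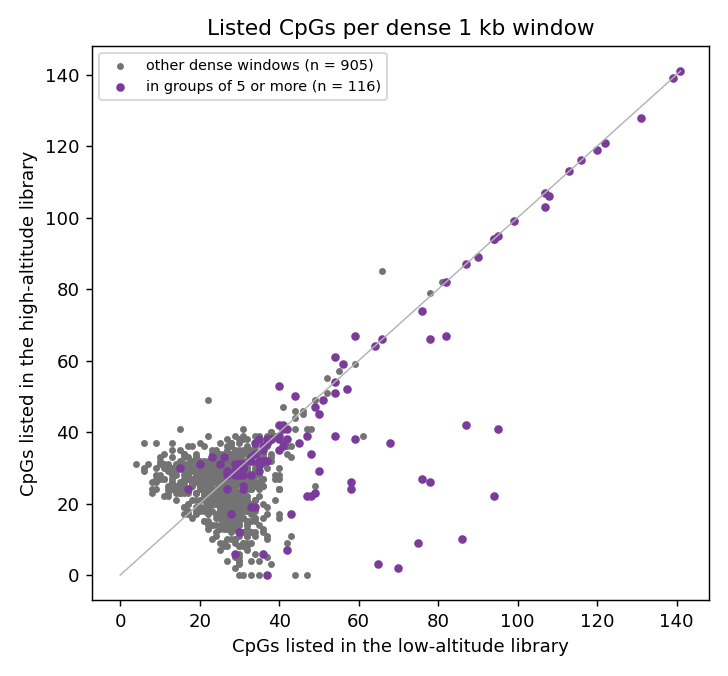
Number of CpGs listed in the low-altitude library (horizontal axis) and in the high-altitude library (vertical axis) in each of the 1021 dense 1 kb windows, with the diagonal of equal numbers. Windows in groups of 5 or more (purple, 116) reach 141 CpGs in both libraries along the diagonal, and 7 windows have no CpG listed at high altitude.

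In 18 dense windows, a library listed fewer than 5 CpGs. The high-altitude library did so in 17 of them and the low-altitude library in 1. No CpG was listed at high altitude in 7 windows, and no dense window was empty at low altitude. The 7 windows were on chromosomes 1 (2 windows), 2, 4 (2 windows), 12 and 15. Without listed CpGs, too few reads, a deleted stretch and too little methylation to be listed cannot be told apart in the high-altitude pig.

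Positions are those in the files, whose genome build is unnamed in the sources used here. The window on chromosome 15 from 134560001 to 134561000 was the most highly methylated of these 7. Its 47 CpGs were all listed in the low-altitude library, where 342 of 343 reads were methylated (99.7%), and 46 of the 47 CpGs were methylated in every read. All 47 cytosines lay on the minus strand, within 403 bases, with 5 to 11 reads each. In the 4 neighbouring windows within 3 kb that had listed CpGs, the low-altitude library listed 28 and the high-altitude library 9. On chromosome 1, the window from 314001 to 315000 had 44 CpGs listed at low altitude only, again all on the minus strand, with 465 of 512 reads methylated (90.8%). The window on chromosome 4 from 10933001 to 10934000 had 31 CpGs on the plus strand only, with 177 of 238 reads methylated (74.4%). Its 5 neighbouring windows held 64 CpGs listed at low altitude and none at high altitude.

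Listing on a single strand was frequent in dense windows. Of 905 windows with at least 20 listed cytosines in the low-altitude library, 213 (23.5%) had all of them on the same strand, and in the high-altitude library 187 of 857 (21.8%). In windows with 20 to 29 CpGs the shares were 14% of 6966 at low and 11% of 6616 at high altitude. Where both strands could be read at 5 or more CpGs, they gave close levels. The plus and minus strand differed by a median of 3.55 points in size over 325 dense windows at low altitude and 4.05 points over 335 at high altitude. Over all such windows the median size was 5.77 points in 47996 windows at low and 5.59 points in 62835 at high altitude.

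Dense windows lay toward the ends of the chromosomes. Within 2 Mb of an end, taken as position 1 or the last listed CpG, were 302 of the 1021 windows (29.6%), against 15.4% of windows with 20 to 29 CpGs and 2.37% of all windows. Within 5 Mb were 566 (55.4%), against 38.0% and 6.41%. Yet no dense window was within 2 Mb of an end on chromosomes 10 and 15. Per 10000 windows with a listed CpG, chromosome 11 had the most dense windows (15.5, from 98 windows), followed by chromosome 12 (12.6, from 54) and chromosome 10 (10.4, from 63). Chromosome 13 had the fewest (1.66, from 27 windows), followed by chromosome 15 (2.53) and chromosome 1 (2.91).

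**Figure D2:**
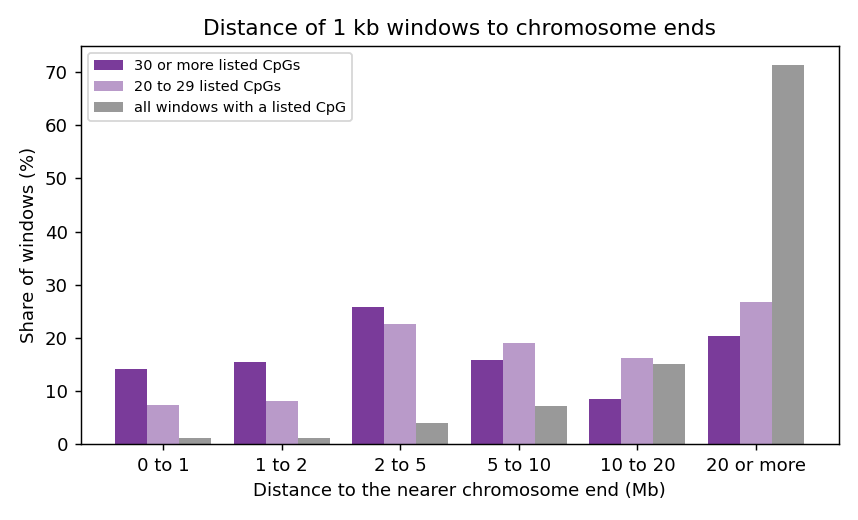
Share of 1 kb windows (vertical axis, %) by distance to the nearer chromosome end (horizontal axis, Mb), for windows with 30 or more listed CpGs, with 20 to 29, and for all windows with a listed CpG. The first Mb holds 14.2% of the dense windows and 1.17% of all windows, and 20.4% and 71.3% lie 20 Mb or more from an end.

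Dense windows were highly methylated in both pigs, with a tail of intermediate levels. Levels could be given for the 1010 windows with a shared CpG. Their median was 81.3% at low altitude (quartiles 74.0% and 86.6%) and 81.9% at high altitude (74.2% and 87.2%). Over all 1528643 windows with a level the medians were 74.5% and 75.8%, and they were higher with more listed CpGs, at 75% and 76.5% with 5 to 9, 78.1% and 79.2% with 10 to 19, and 80.2% and 81.0% with 20 to 29 CpGs. The windows were chosen on listed CpGs, to which methylation itself contributes, so this order is a description.

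Of the 980 dense windows with at least 5 shared CpGs, 557 (56.8%) at low and 587 (59.9%) at high altitude had a level of 80% or more, against 38.8% and 42.5% of all 451968 such windows. Levels of 40 to 60% were found in 75 dense windows (7.65%) at low and 61 (6.22%) at high altitude, levels of 20 to 40% in 14 and 23 windows, and levels below 20% in 1 and 2 windows. Windows flanking the dense ones were less dense and nearly as methylated. In the windows 1 kb upstream that were not dense themselves, the median was 11 listed CpGs, with median levels of 79.7% at low and 80% at high altitude. In those 1 kb downstream it was 12 CpGs, with levels of 78.5% and 79.3%.

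Level and depth went together among the dense windows. A listed cytosine has at least 1 methylated read, so at few reads a low level could not be listed. The part of this in the order by depth was not tested. Median levels were 82.3% at low and 83.1% at high altitude in windows with under 12 reads per listed CpG, 80.7% and 81.4% at 12 to 20 reads, 75% and 68.5% at 20 to 50 reads, and 59.6% and 62.4% in the 80 windows with 50 reads or more. Those deepest windows held 1070023 of the 1281287 reads at shared CpGs of dense windows at low altitude, and 812126 of 1004734 at high altitude. The level over all reads was therefore far below that of the typical window, at 61.2% at low and 59.5% at high altitude. Without the deepest windows it was 77.8% and 78.6%, a difference of −0.84 points, against 1.70 points with them. Yet of the 80 deepest windows 48 were lower and 32 higher at low altitude, with a median difference of −1.17 points. On chromosome 6, 13 adjacent dense windows from 865001 to 878000 held 431025 of the 1281287 reads at low altitude. They held 269422 of the 1004734 at high altitude, with a difference of 12.5 points.

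The lowest levels were found far from the typical values. The window on chromosome 16 from 54725001 to 54726000, which lay in a run of 5 dense windows, had 3.19% at low altitude (87 of 2728 reads, 2.59 to 3.92) and 2.51% at high altitude (55 of 2191 reads, 1.93 to 3.25) over 26 shared CpGs. No CpG in it exceeded 7.69% at low or 4.71% at high altitude, whereas its 4 tested neighbours within 2 kb averaged 70.5% and 72.9%. On chromosome 4, the window from 96939001 to 96940000 had 26.2% (21 of 80 reads) and 18.3% (17 of 93 reads), and that from 96941001 to 96942000 had 29.4% (78 of 265 reads) and 20.2% (33 of 163 reads). With all listed CpGs the first of these was lower at low altitude, by −3.09 points. On chromosome 6, the window from 117001 to 118000 had 23.2% (1094 of 4725 reads) at low and 26.2% (1376 of 5244 reads) at high altitude. This direction turned without CpGs deeper than 100 reads, at 11.2 points (exact-test adjusted p 0.00025), and by the mean of CpG levels, at 0.34 points. Its single CpGs ranged from 2.75% to 95.4% at low and from 7.3% to 91.7% at high altitude.

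The highest levels belonged to thinly read windows, 3 of the 4 on chromosome 8. From 8764001 to 8765000 on that chromosome, 32 of 32 reads were methylated at low and 30 of 31 at high altitude, over 6 shared CpGs. From 1505001 to 1506000, the counts were 35 of 38 and 41 of 41 reads over 7 CpGs, and from 19001 to 20000 they were 113 of 119 and 102 of 107 reads over 16 CpGs. On chromosome 5, from 549001 to 550000, they were 45 of 47 and 42 of 44 reads. The counting interval of each of the 4 differences included 0.

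The comparison of the pigs asked whether methylation of the dense windows differed between the low-altitude pig and its highland counterpart. The typical dense window was slightly less methylated at low altitude, by a median of −0.82 points (quartiles −4.18 and 3.05, 1010 windows). With CpGs of at least 10 reads in each library the median was −0.30 points. By CpG number it was −0.92 points at 30 to 34 CpGs, −1.09 points at 35 to 39 and −0.82 points at 40 to 49. In the 64 windows with 50 or more CpGs the median was 1.54 points, with 25 lower and 37 higher at low altitude of the 62 tested. These 64 windows include neighbours within the same runs, which the counts treat as separate. Among them are most windows of the chromosome 6 run from 865001 to 878000, whose 13 windows were all higher at low altitude. Over all windows with a level the median was −0.89 points, with wider quartiles of −8.49 and 6.35. Of the 980 tested dense windows, 560 (57.1%) were lower and 418 higher at low altitude. Over all 451968 tested windows, 248252 (54.9%) were lower and 202365 higher, a split near that of the dense windows. The medians by chromosome were negative on 14 and positive on 4 of the 18 autosomes. As a description, the levels of the pigs had a Pearson correlation of 0.874 across the 980 windows, which share libraries and depth, and 0.769 across all 451968 windows. The median difference was −0.80 points in windows with under 12 reads per listed CpG, −1.03 points at 12 to 20, −0.23 points at 20 to 50 and −1.17 points at 50 or more.

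Few dense windows differed by a large amount. A window was called where Fisher's exact test on its summed reads gave an adjusted p under 0.05 and the levels were 20 or more points apart. This held for 6 of the 980 windows (0.612%), 3 lower and 3 higher at low altitude. Among all 451968 windows the called share was 0.564%, with 0.350% lower and 0.214% higher, so the count among dense windows was near the background. The p-values were adjusted by Benjamini-Hochberg over all windows. They compare 2 libraries and not 2 altitudes, and they are too small, because 1 read can cover several CpGs.

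**Figure D3:**
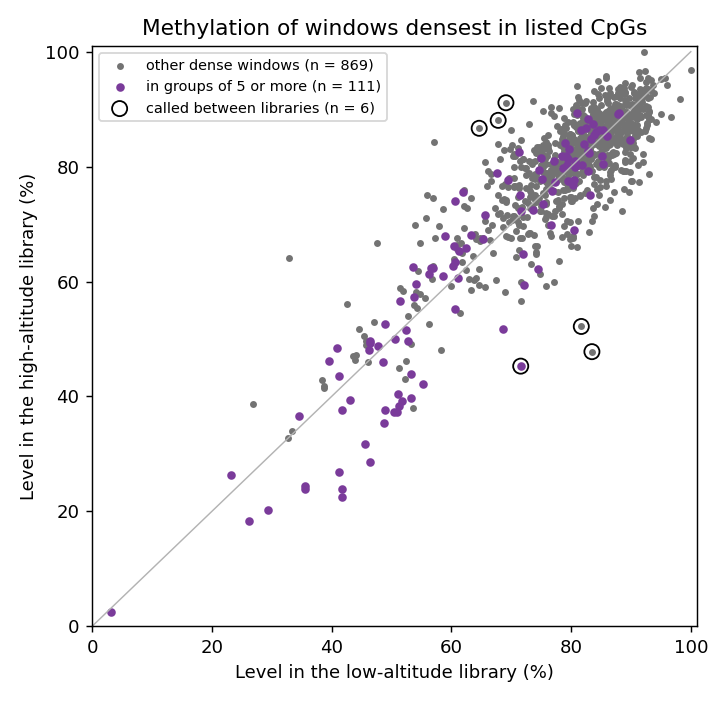
Methylation level at low altitude (horizontal axis, %) and at high altitude (vertical axis, %) of the 980 dense windows with at least 5 shared CpGs, with the diagonal of equal levels. Most windows lie near the diagonal above 60%, the 6 called windows are ringed, and windows in groups of 5 or more (purple, 111) are frequent below 60%.

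The 3 called windows that were lower at low altitude all stood above 86% at high altitude. One was the window from 3584001 to 3585000 on chromosome 11, with 64.7% (139 of 215 reads, 58.1 to 70.7) at low and 86.7% (182 of 210 reads, 81.4 to 90.6) at high altitude over 23 shared CpGs. The difference was −22.0 points (−29.7 to −14.0), with an adjusted p of 0.000268 by the exact test. The level was lower at low altitude at 20 of its 23 CpGs, and its 4 tested neighbours within 2 kb averaged 84.8% and 86.8%. The window from 3234001 to 3235000 on chromosome 7 had 94 of 136 reads methylated (69.1%) at low and 82 of 90 (91.1%) at high altitude, with an exact-test adjusted p of 0.0196. It was listed unequally, with 31 CpGs at low and 12 at high altitude. Its 12 shared CpGs had 11.3 reads each at low and 7.5 at high altitude. The window from 2911001 to 2912000 on chromosome 3 had 78 of 115 reads methylated (67.8%) and 140 of 159 (88.1%), with an exact-test adjusted p of 0.0183. Here 18 of 19 CpGs were lower at low altitude and 1 was equal. These 3 windows had 6.05 to 11.3 reads per shared CpG at low altitude, and their calls did not hold under every setting. With CpGs of at least 10 reads in each library, 4 of 445 dense windows were called and all 4 were higher at low altitude. No share or direction over all windows was taken at this setting. The difference was then −17.6 points on chromosome 11, −3.33 points on chromosome 3 and −39.5 points on chromosome 7. On chromosomes 3 and 7 too few shared CpGs were left for a test. With all listed CpGs it was −16.1 points on chromosome 11, where the minus strand alone had 25 points over too few CpGs for a test. On the minus strand alone it was −13.9 points on chromosome 7.

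Unequal depth stood beside 2 of the 3 called windows that were higher at low altitude. The window from 131216001 to 131217000 on chromosome 15 had 83.5% (657 of 787 reads) at low and 47.8% (54 of 113 reads) at high altitude. This was a difference of 35.7 points (26.2 to 45.0), with an exact-test adjusted p of 1.91e-11. Of its 37 CpGs, the low-altitude library listed 37 and the high-altitude library 5. The window from 87553001 to 87554000 on chromosome 13 had 71.6% (577 of 806 reads) and 45.3% (134 of 296 reads), with 58 and 24 listed CpGs and an exact-test adjusted p of 1.64e-11. It was higher at low altitude at 23 of 24 shared CpGs. The window from 2157001 to 2158000 on chromosome 11 had 81.7% (67 of 82 reads) and 52.2% (36 of 69 reads) over 7 CpGs, with an exact-test adjusted p of 0.0351. On the minus strand alone the difference was 13.5 points on chromosome 13 and 17.1 points on chromosome 11, and neither window was called. The window on chromosome 11 also lost its call with all listed CpGs, at 12.8 points. The part of unequal depth in these differences was not tested.

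At single CpGs, more calls were made than over the genome, and most of them were on chromosome 6. CpGs were tested if both libraries had 10 or more reads on them. In dense windows these were 9039, and 85 of them (0.940%) were called, which here meant an exact-test adjusted p under 0.05 and levels 25 or more points apart. The share was 0.358% among all 2538648 autosomal CpGs, with 0.196% lower and 0.162% higher at low altitude. Of the 85, 71 were higher and 14 lower at low altitude. Chromosome 6 held 53 of them, 50 higher and 3 lower. Without chromosome 6, 32 of 6770 (0.473%) were called, 21 higher and 11 lower. The tested CpGs of dense windows were deep, with a median of 31 reads at low and 26 at high altitude against 16 and 17 over all autosomal CpGs, and on chromosome 6 the medians were 145 and 92. Called differences had a median size of 32.1 points in dense windows and 62.5 points over all autosomes, so that depth moved with the calls and its part was not tested.

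Most dense windows stood alone, but a few formed long stretches. Of the 921 runs of adjacent dense windows, 875 were a single window, 32 held 2 windows, and 14 held 3 or more. Joined over gaps of up to 20 kb, 12 groups had 5 or more dense windows. They held 116 of the 1021 windows, 17.4% of the CpGs in dense windows, 73.4% of the shared reads at low altitude and 68.9% at high altitude. Their windows had median levels of 65.7% at low and 66.1% at high altitude, with a median of 44.3 and 38.5 reads per listed CpG. The other 905 windows had median levels of 82.0% and 82.6%, with 8.36 and 8.46 reads per CpG.

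The longest run held 15 windows on chromosome 9, from 40841001 to 40856000, with 810 CpGs, of which 1.98% were listed in 1 library only. Over the run the level was 65.4% (154088 of 235429 reads) at low and 66.5% (125743 of 189030 reads) at high altitude, and 14 of the 15 windows were lower at low altitude. It fell into 2 pieces, told apart after their values were seen. In the first 6 windows the level was 81.2% at low and 82.8% at high altitude, with 177 and 86.3 reads per listed CpG. In the other 9 windows it was 56.5% at low and 62.0% at high altitude, with 464 and 456 reads per listed CpG. All 9 were lower at low altitude, and their range was 51.4% to 62.4% at low and 56.6% to 66.1% at high altitude. Its windows differed by −8.85 to −2.32 points, −5.50 points over all reads. The window with −8.85 points, the last of the run, had 334 reads per listed CpG at low and 445 at high altitude. Over the whole run the difference was −1.07 points, smaller in size than the −1.62 and −5.50 points of the pieces. The level over the run weights windows by their reads. The first piece held 85236 of these reads at low and 40876 at high altitude.

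The run with the most CpGs held 13 windows on chromosome 6, from 865001 to 878000, with 1331 CpGs. The 5 windows with the most CpGs of all lay in it, with 120 to 141 each. The level over the run was 51.7% (222787 of 431025 reads, 51.5 to 51.8) at low and 39.2% (105567 of 269422 reads) at high altitude, a difference of 12.5 points. All 13 windows were higher at low altitude, by 5.49 to 19.3 points. The window with the most CpGs, from 871001 to 872000, had 51.2% (11038 of 21569 reads) at low and 38.3% (4419 of 11538 reads) at high altitude, and it was higher at low altitude at 132 of its 141 CpGs. Its adjusted p in the exact test was 4.15e-107, but with 12.9 points it did not reach 20 points and was not called. Depth per shared CpG in the run was 331 reads at low and 207 at high altitude, and the part of this in the difference was not tested.

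Elsewhere on chromosome 6 the direction was not the same. The 5 windows from 954001 to 959000 had 39.9% at low and 25.2% at high altitude, all of them higher at low altitude, by 11.2 to 17.7 points. Of the called CpGs on the chromosome, 13 lay in the window from 955001 to 956000 and 9 in that from 954001 to 955000. Nearer the start of the chromosome, the 5 windows from 117001 to 122000 had 36.6% at low and 38.9% at high altitude, with 4 windows lower. The 6 windows between 167001 and 176000 had 54.3% and 55.6%, with 3 lower and 3 higher.

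**Figure D4:**
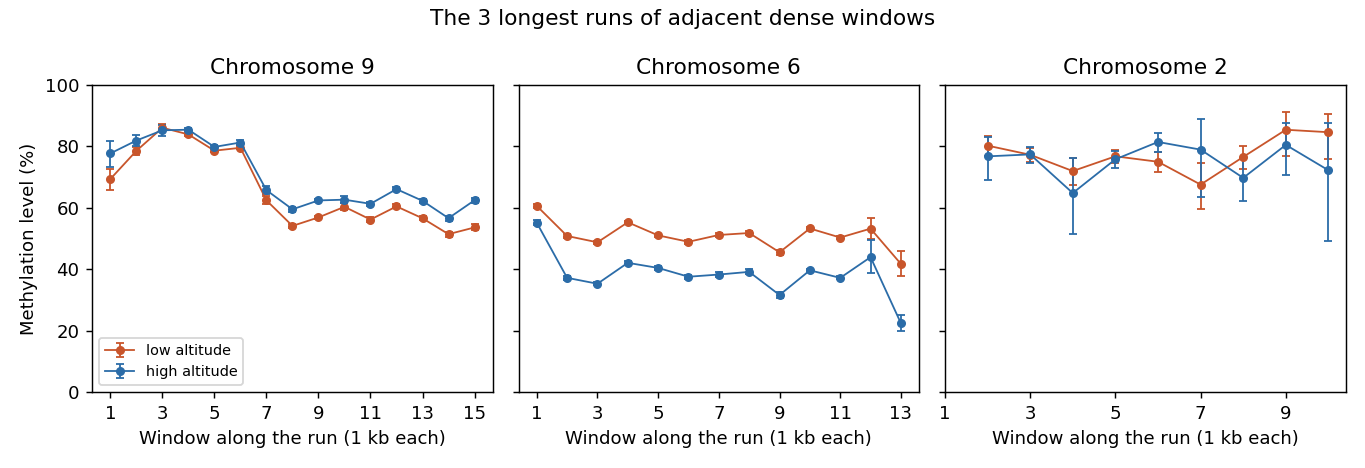
Methylation level (vertical axis, %) of each 1 kb window along the 3 longest runs of adjacent dense windows (horizontal axis, window number), at low altitude (orange) and high altitude (blue), with 95% Wilson intervals of the reads. On chromosome 9 the level drops after the sixth window, on chromosome 6 all 13 windows are higher at low altitude, and on chromosome 2 the first window has no shared CpG and the lines cross.

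The third run held 10 windows on chromosome 2, from 100160001 to 100170000, and was listed unequally. The low-altitude library listed 726 of its 728 CpGs and the high-altitude library 211. At the 209 shared CpGs the level was 76.7% (4343 of 5663 reads, 75.6 to 77.8) at low and 77.2% (2453 of 3179 reads, 75.7 to 78.6) at high altitude, with 6 windows higher and 3 lower at low altitude. All reads at listed CpGs numbered 15061 at low and 3189 at high altitude. The run was part of a group of 29 dense windows spread over 72 kb, the largest of the 12, in which the libraries listed 1455 and 808 of 1572 CpGs. A similar imbalance was seen in the run of 5 windows on chromosome 13 from 87551001 to 87556000, where 309 and 154 of 310 CpGs were listed and the level was 71.8% at low and 56.7% at high altitude. There, listed CpGs had 25.5 reads each at low and 14.97 at high altitude.

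On chromosome 16, the 5 windows from 54722001 to 54727000 had more reads at high altitude, 20775 at low against 36043 at high altitude at shared CpGs. Their level was 60.4% at low and 67.6% at high altitude. Of the windows, 4 were lower at low altitude, and single windows differed by −5.21 to 0.68 points. The larger difference over the run, −7.25 points, weights windows by their reads, and these differed between the libraries. The group on chromosome 11 from 37936001 to 37958000 had 12 windows with 81.8% at low and 83.7% at high altitude, and 9 of them were lower at low altitude. The 6 dense windows between 69491001 and 69510000 on chromosome 17 had 53.6% and 59.95%, with 4 of them lower.

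The positions of listed CpGs in several groups recurred at fixed distances. In the chromosome 11 group, 38.7% of CpGs had another listed CpG exactly 50 bases further on, and 27.5% had one 100 bases on, against a median of 5.03% over all distances from 2 to 600 bases. In the chromosome 2 group the shares were 26.3% at 50 bases and 20.1% at 100 bases, against a median of 5.27%. Both groups also had distances of 6, 22 and 28 bases among their 5 most frequent. In the first 6 windows of the chromosome 9 run it was 40.3% at 50, 36.2% at 100 and 31.2% at 150 bases.

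The other 9 windows of that run had another spacing. There, 84.0% of CpGs had a listed CpG exactly 336 bases further on, and none had one at 50 bases. The 2 pieces thus differed in spacing as well as in level. From the sixth to the seventh window, the level fell from 79.5% to 62.4% at low and from 81.3% to 65.7% at high altitude. Reads per listed CpG went from 224 to 192 at low and from 103 to 186 at high altitude. In the eighth window they were 451 and 408. In the chromosome 6 group from 852001 to 880000, 15.8% had a partner at 50 bases against a median of 10.4%, or 1.51 times that median. In the 8 groups beyond these 4, the share at 50 bases was between 2.92% and 8.43%, or 0.833 to 2.09 times the median of the same group. In the dense windows outside the groups the median was 3.25%, with 4.49% at 50 bases and the highest share, 6.96%, at 6 bases. No sequence was read, so these spacings describe CpG positions only.

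**Figure D5:**
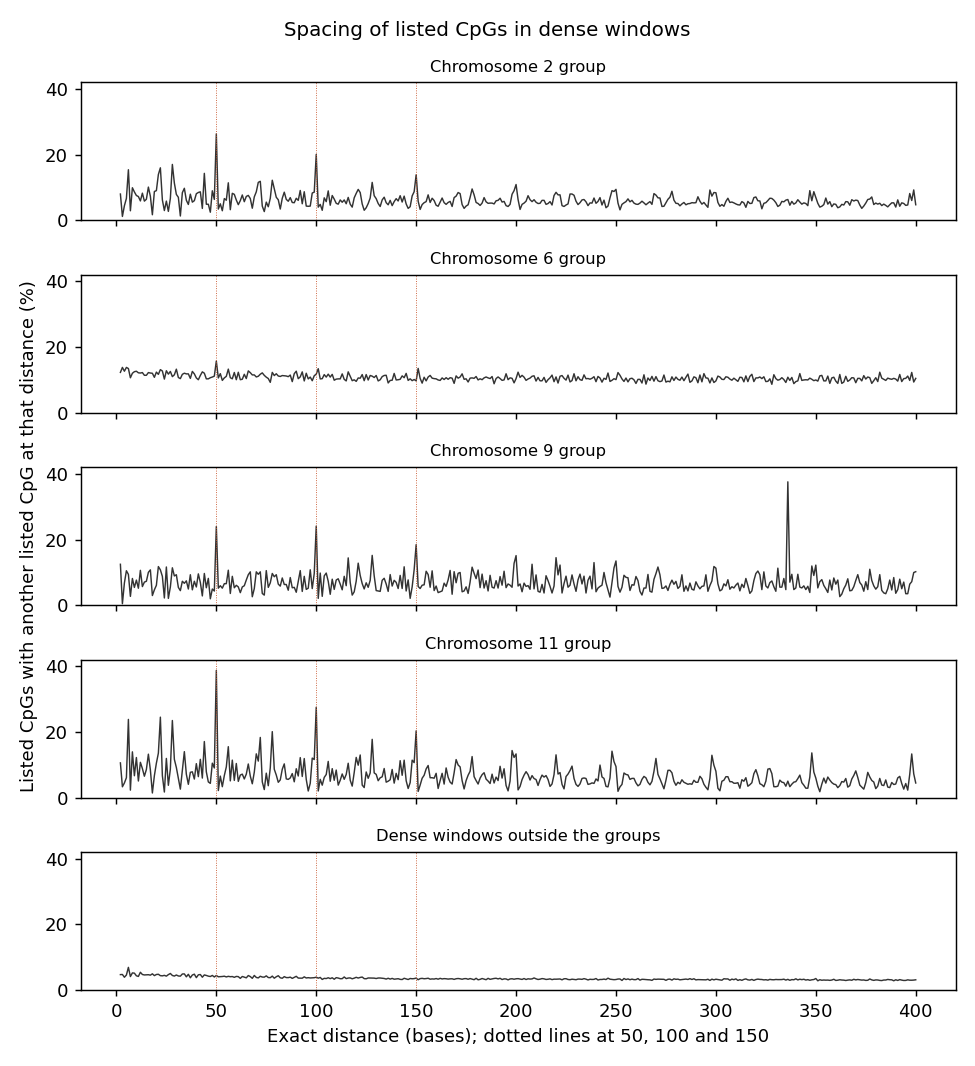
Share of listed CpGs with another listed CpG at an exact distance (vertical axis, %), by that distance in bases (horizontal axis), in the groups of dense windows on chromosomes 2, 6, 9 and 11 and in the dense windows outside the 12 groups. Peaks stand at 50, 100 and 150 bases on chromosomes 2, 9 and 11 and at 336 bases on chromosome 9, and in the windows outside the groups no share exceeds 6.96%.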

How the data were processed

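Muscle DNA of 2 pigs, 1 per altitude, was bisulfite-sequenced on an Illumina instrument, per the labels' protocols. The submitters' processing notes name Bismark 0.12.5. Genome build, read filters and duplicate handling: not given in the sources used here. For each cytosine, the authors deposited, per the file headers, counts of methylated and of unmethylated reads, the methylation level (a fraction), a raw p-value and a corrected p-value. From the values, every line is a CpG cytosine with at least 5 reads, at least 1 methylated read and a corrected p-value below 0.05. The deposited fraction differed from the share of methylated reads by at most 0.0276 points at low and 0.0292 points at high altitude, and levels were computed from the counts.

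The minus strand was moved by 1 base to join each CpG, and a CpG was shared if each library listed either of its strands. Windows of 1000 bases on 18 autosomes were tested if they had at least 5 shared CpGs, in total 451968, by Fisher's exact test (2-sided), with p-values adjusted by Benjamini-Hochberg over all of them. Single CpGs needed 10 reads in each library. The tests were checked on simulated reads (numpy 2.4.6, pandas 2.3.3, scipy 1.17.1, numba 0.67.0). Windows are named by fixed rules: the 5 with the most CpGs, called windows, the 4 lowest and 4 highest among tested ones, and the 3 longest runs. Any other window was picked once its values were known. The windows, rules and tests were chosen with earlier results of these data known.

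Positions are those of the files. On 17 of 18 autosomes some lay beyond every gene in the reference gene list (Sscrofa11.1), so no gene was assigned and no sequence read. Alternatives covered depth, strands, window grid, CpG number, call threshold and shared listing.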

Additional observations from a re-analysis of the deposited data

How the results depend on the processing

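No paired analysis was possible because each altitude has 1 library. The called dense windows, 6 of 980 tested, became 3 of 667 on the plus strand alone and 3 of 650 on the minus strand alone. With all listed CpGs of each library they were 15 of 1003. They were 16 of 3590 for windows with 25 or more CpGs and 1 of 144 with 40 or more. Where 30 points were required, 1 of 980 was called. The number tested thus changed with the setting, and shares over all windows were taken for the main setting only. The called windows stayed within 1.5 times under the other alternatives tried, from 4 to 6. The median difference of −0.82 points was −0.30 with CpGs of at least 10 reads and 0 in windows with 40 or more CpGs, and between −0.95 and −0.55 otherwise. The share of CpGs listed in 1 library only, 42.1%, was 45.2% at 25 and 31.1% at 40 or more CpGs, 42.7% with windows shifted by 500 bases and 45.3% for single cytosines. Added after seeing the data, it was 47.2% without windows over 50 reads per CpG. The called CpGs, 85 of 9039 tested, were 36 of 9039 at a difference of at least 40 points. Added after seeing the data, they were 32 of 6770 without chromosome 6 and 23 of 4921 without windows over 50 reads per CpG. They numbered 87 of 4849 with at least 20 reads, a near-equal count among fewer CpGs, and 96 of 11448 for single cytosines. Shares over all autosomal CpGs were likewise taken for the main setting only. The causes were not tested.

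Of 102 differences of named windows under an alternative, 96 kept their direction. The 6 called windows had 34 values under an alternative, of which 21 could be tested. They were still called in 15 and not in 6, and the other 13 had no test. In 6 of the 102 the direction reversed, all but the first in windows that were not called. The called window on chromosome 11 at 3584001 had 25 points on the minus strand alone, where under 5 CpGs were shared. On chromosome 4, 96939001 had −3.09 points and, on chromosome 8, 1505001 had 1.41 points with all listed CpGs. On chromosome 6, 117001 had 11.2 points without CpGs deeper than 100 reads and 0.34 points by the mean of CpG levels, and on chromosome 8, 19001 had 0.17 points by that mean. The called window on chromosome 11 at 2157001 had 18.7 points by the mean of CpG levels. For lack of shared CpGs, 12 further alternatives gave no value.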
